A study of Homo sapiens with 2 samples.

Results

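Among hESCs of the H1 line treated with BMP4, a small set of cells held little SOX2 transcript while transcripts of the primitive streak, the anterior streak and the TFAP2A, HAND1 and ISL1 programme stayed under set limits. These SOX2-low cells without lineage markers were chosen from their own counts of 9 genes. A cell had to have at most 7500 detected genes, at most 25% mitochondrial transcripts and at least 10000 unique molecular identifiers (UMIs, each standing for 1 captured transcript). It then had to have less than 1 SOX2 UMI per 10000, and less than 0.5 per 10000 of MIXL1, EOMES and TBXT together, of CER1 and GSC together, of TFAP2A, and of HAND1 and ISL1 together. The rule was met by 244 of the 10023 cells in the deposited count tables. They were 159 of the 2173 cells within the limits on genes, mitochondrial share and UMIs in the library labelled WT (7.32%, exact binomial 95% interval 6.26 to 8.49%). They were 85 of 4038 such cells in the library labelled GATA3 KO (2.11%, 1.69 to 2.60%). Both shares moved with the rule, to 8.38% and 3.59% when it was applied after thinning each cell to 10000 UMIs, to 4.60% and 0.991% with a SOX2 limit of 0.5, and to 3.13% and 1.26% when no lineage UMI was allowed. WT and GATA3 KO are used below as the names of these libraries.

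Both libraries had been given 50 ng/ml BMP4 in mTeSR1 for 48 h. The library labelled WT was made from H1 itself, a widely used human embryonic stem cell line. The library labelled GATA3 KO was made from 1 clone, KO-GATA3-06, in which Cas9 had been directed at GATA3 in an H1 line with an inducible Cas9 cassette, so genotype, clone and cassette cannot be told apart here. With 1 library per group and no replicates, no test between groups was possible. Every interval below is a 95% interval for counting error only, and it does not cover differences between cells or between cultures. The protocol text stored with the library labelled WT gives another exposure time than its title and recorded duration, and the 48 h of the latter were used.

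POU5F1 and SOX2 are transcription factors that act together to hold the pluripotent state. NODAL is a secreted TGF-beta family ligand that signals through SMAD2 and SMAD3, and LEFTY1 and LEFTY2 are its secreted inhibitors, transcribed in response to that signal, so the set forms a feedback loop. BMP4 signals through SMAD1, SMAD5 and SMAD9, and the ID genes, MSX2 and the decoy receptor BAMBI are among its direct targets. In hESCs, BMP4 leads towards streak and mesoderm when NODAL and WNT signals are present, and towards amnion-like or trophectoderm-like cells, marked by TFAP2A, GATA3, HAND1 and ISL1, when they are low.

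GATA3 was read first because it was the targeted gene. Over the cells within the limits it stood at 12.5 CPM (UMIs per 1000000) in WT and at 10.9 CPM in GATA3 KO. In the SOX2-low cells it stood at 11.8 CPM (9.35 to 14.8) and 8.01 CPM (5.02 to 12.1), WT first, as in all pairs of values below unless a library is named. These counts read the 3′ end of the transcript, which says nothing of an edit in the coding sequence, so GATA3 does not check the labels.

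The SOX2-low GATA3 KO cells were shallower than their neighbours. Their median was 30409 UMIs per cell, against 44791 in the SOX2-high cells of that library, meaning the cells under the same lineage limits with 1 or more SOX2 UMI per 10000. Fewer than 20000 UMIs were counted in 37.7% of them and in 7.70% of the SOX2-high cells. A mitochondrial share under 2% was found in 20 of the 85 (23.5%) and in 3.93% of the SOX2-high cells. In WT the gap was smaller, with medians of 44337 and 47155 UMIs, and 7 of 159 SOX2-low cells (4.40%) had a mitochondrial share under 2%. The share of SOX2-low cells also moved with depth in GATA3 KO, from 8.49% (5.88 to 11.8) of cells with 10000 to 20000 UMIs to 1.39% (0.976 to 1.92) of cells with 40000 or more. In WT it was 8.42% (4.98 to 13.1) and 6.63% (5.41 to 8.02) in the same bands. Values without the shallow cells are given beside the results they touch, and the part of depth and RNA quality in the other results was not tested. The libraries shared 8 cell barcodes, 0 of them among the SOX2-low cells. No doublet caller was run.

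SOX2 itself was used to choose the cells, so its values are a description. No SOX2 UMI was counted in 46 of the 159 WT cells (28.9%) and in 24 of the 85 in GATA3 KO (28.2%). The median was 0.398 and 0.523 SOX2 UMIs per 10000, against 2.89 and 4.49 in the SOX2-high cells. No gap in the distribution was seen at the limit of 1 per 10000 in either library. The cells nearest to it in WT had 0.998, 0.996 and 0.986 inside and 1.00, 1.00 and 1.01 outside, and in GATA3 KO 0.999, 0.999 and 0.980 inside and 1.01, 1.02 and 1.03 outside. As a share of the cells under all lineage limits, the SOX2-low cells made up 16.1% (13.8 to 18.5) of 990 WT cells and 2.71% (2.17 to 3.34) of 3137 in GATA3 KO.

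**Figure D1:**
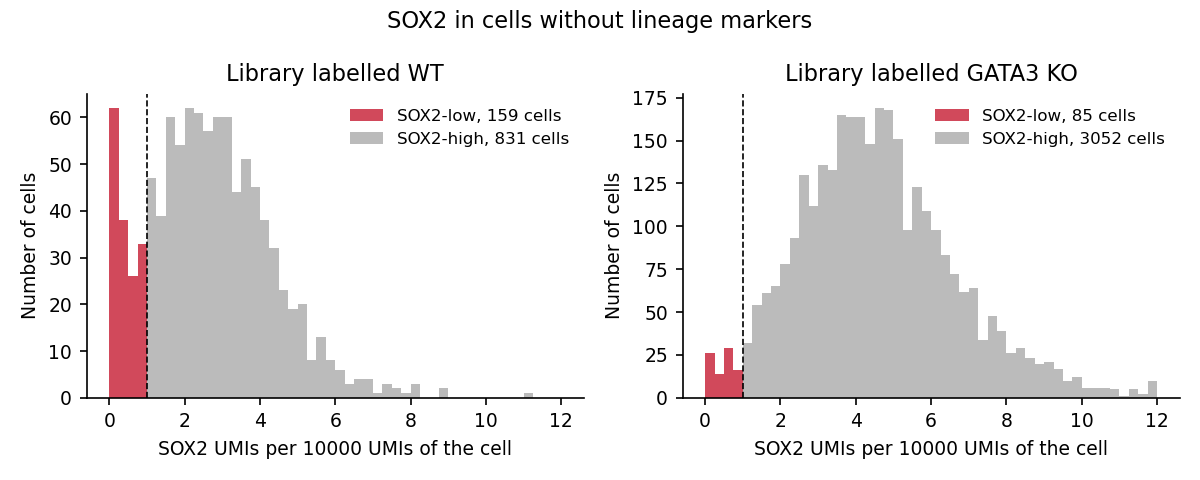
Number of cells (vertical axis) by SOX2 UMIs per 10000 (horizontal axis, cells above 12 drawn in the last bin) among cells under all lineage limits, 1 panel per library, with the limit of 1 as a dashed line. The 159 SOX2-low WT cells stand as a peak at 0 with a shoulder up to the limit, and the 85 in GATA3 KO form a thin tail of a distribution with a median of 4.49 in its SOX2-high part.

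"Without lineage markers" meant low and not zero. The cells nearest to the limit of 0.5 on MIXL1, EOMES and TBXT had 0.499 inside and 0.505 outside in WT and 0.487 and 0.529 in GATA3 KO, and for TFAP2A 0.495 and 0.506, and 0.487 and 0.507. In WT, 70 cells (44.03%) held at least 1 UMI of MIXL1, EOMES or TBXT and 37 (23.3%) held at least 1 of TFAP2A. In GATA3 KO these were 18 cells (21.2%) and 23 cells (27.1%). No UMI of any of the 8 lineage genes was found in 68 WT cells (42.8%) and in 51 in GATA3 KO (60.0%). The limit that kept most other SOX2-low cells out differed between libraries. In WT, 474 cells failed on MIXL1, EOMES and TBXT alone and 43 on TFAP2A alone, while in GATA3 KO 40 failed on the first and 193 on the second. Membership was sensitive to sampling. When each cell was thinned at random to 10000 UMIs and the rule applied again, 182 and 145 cells met it, and 79 of the 159 and 43 of the 85 cells were among them.

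POU5F1 (chromosome 6, 31164337 to 31180731 in GRCh38, minus strand) was high in the SOX2-low cells of both libraries. It was detected in each of the 159 and 85 cells. In WT it stood at 1049 CPM (1024 to 1074), with a median cell at 1025 CPM and quartiles at 857 and 1211. The SOX2-high cells stood at 902.5 CPM and the streak cells (0.5 or more UMIs of MIXL1, EOMES and TBXT per 10000) at 919 CPM. In GATA3 KO the SOX2-low cells stood at 1694 CPM (1646 to 1744), the SOX2-high cells at 1485 and the streak cells at 1688. POU5F1 was thus higher in SOX2-low than in SOX2-high cells by a log2 ratio, taken with 1 CPM added to both levels, of 0.22 (0.18 to 0.25) and 0.19 (0.15 to 0.23). With the rule applied after thinning, these ratios were 0.10 and 0.06.

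NANOG, which joins them in the core pluripotency set, was also kept, at 80.7 CPM (74.0 to 87.8) against 73.2 in the SOX2-high WT cells, and at 66.6 CPM (57.3 to 77.0) against 54.9 in those of GATA3 KO. Other genes of the pluripotent state stood lower. Among 18 genes of the pluripotency list with 20 CPM or more in the higher of the sets, 14 were lower in SOX2-low WT cells by their counting intervals and 3 higher, with a median log2 ratio of -0.49, where all 5177 such genes had -0.05. For GATA3 KO cells it was 13 lower and 3 higher of 17, with a median of -0.55 against -0.05 over 5412 genes. DNMT3B, a de novo DNA methyltransferase, was at 153 and 117 CPM in the SOX2-low cells and at 336 and 304 CPM in the SOX2-high cells. TERF1, a telomere-binding protein abundant in hESCs, was at 752 and 566 CPM against 1494 and 1267. USP44, a deubiquitinase of undifferentiated cells, was at 79.3 and 70.6 CPM against 183 and 191, and UTF1, a chromatin factor of pluripotent cells, was at 5.31 and 9.47 CPM against 21.0 and 32.8. The one list gene past 2-fold upwards was GDF3, a NODAL-related ligand, in GATA3 KO, at 23.7 CPM against 11.2. DNMT3B, UTF1 and USP44 were past 2-fold downwards in both libraries, and TERF1 was so in GATA3 KO. By their intervals 17.3% and 15.7% of all tested genes were higher and 29.9% and 22.1% lower in SOX2-low cells, a call that abundant genes reach more easily. Over all tested genes 1.12% and 1.83% were higher and 0.657% and 0.979% lower by 2-fold or more in SOX2-low cells. Smaller differences were seen for SALL4, at 88.0 and 73.2 CPM against 150.4 and 145, LIN28A, which blocks let-7 maturation, at 372 and 432 CPM against 513 and 594, and DPPA4, at 246 and 170.0 CPM against 360.5 and 277.

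NODAL (chromosome 10, 70431936 to 70447951, minus strand) was higher in SOX2-low than in SOX2-high cells in both libraries. In WT it stood at 88.9 CPM (81.8 to 96.4) against 41.0, and in GATA3 KO at 75.0 CPM (65.1 to 86.0) against 7.94. The log2 ratios were 1.10 (0.96 to 1.23) and 3.09 (2.87 to 3.30), and the difference between libraries was not tested. The streak cells stood higher still, at 159 and 162 CPM. After thinning to 10000 UMIs, at least 1 NODAL UMI was found in 44.7% of SOX2-low WT cells and 31.8% of those of GATA3 KO, against 23.0% and 4.75% of SOX2-high cells. Without thinning these shares of SOX2-low cells were 77.4% and 47.1%, and the median SOX2-low cell stood at 63.7 and 0 CPM.

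The inhibitors were lower and more unevenly spread. LEFTY1 (chromosome 1, 225886282 to 225911382, minus strand) stood at 24.4 CPM (20.8 to 28.5) in the SOX2-low WT cells, where the SOX2-high cells had 21.2 and the interval of the log2 ratio, 0.19 (-0.05 to 0.43), held 0. In those of GATA3 KO it stood at 9.10 CPM (5.89 to 13.4) against 3.79. LEFTY2 (chromosome 1, 225936598 to 225941383, minus strand) stood at 15.0 CPM (12.2 to 18.3) against 11.0, and at 8.01 CPM (5.02 to 12.1) against 1.28. LEFTY1 and LEFTY2 are close copies that lie side by side, so the split of UMIs between them is uncertain. Their sum was 39.4 CPM (34.8 to 44.5) in SOX2-low WT cells against 32.2 in SOX2-high cells, and 17.1 CPM (12.6 to 22.8) against 5.07 in GATA3 KO. After thinning, either of them was found in 22.6% (16.4 to 29.9) and 8.24% (3.38 to 16.2) of SOX2-low cells, 18.7% and 3.24% of SOX2-high cells and 3.68% and 3.204% of cells with TFAP2A, HAND1 or ISL1, and the part of free RNA in these shares was not tested.

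Summed over the 3 genes, LEFTY1, LEFTY2 and NODAL came to 128 CPM (119.8 to 137) in the SOX2-low WT cells and to 92.1 CPM (81.1 to 104) in those of GATA3 KO. The SOX2-high cells had 73.2 and 13.0 CPM. At least 1 UMI of the 3 genes was found after thinning in 53.5% (45.4 to 61.4) and 35.3% (25.2 to 46.4) of SOX2-low cells, against 32.1% and 6.88% of SOX2-high cells and 54.6% and 11.7% of all cells within the limits. The WT cells thus stood near their library's level and those of GATA3 KO above it. Between libraries, the SOX2-low GATA3 KO cells had less of the 3 genes, with a log2 ratio of -0.47 (-0.68 to -0.27), and it was -0.38 (-0.60 to -0.17) among cells of at least 20000 UMIs. With the rule applied after thinning it was -1.24 (-1.43 to -1.05), and by means of per-cell CPM -0.73.

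**Figure D2:**
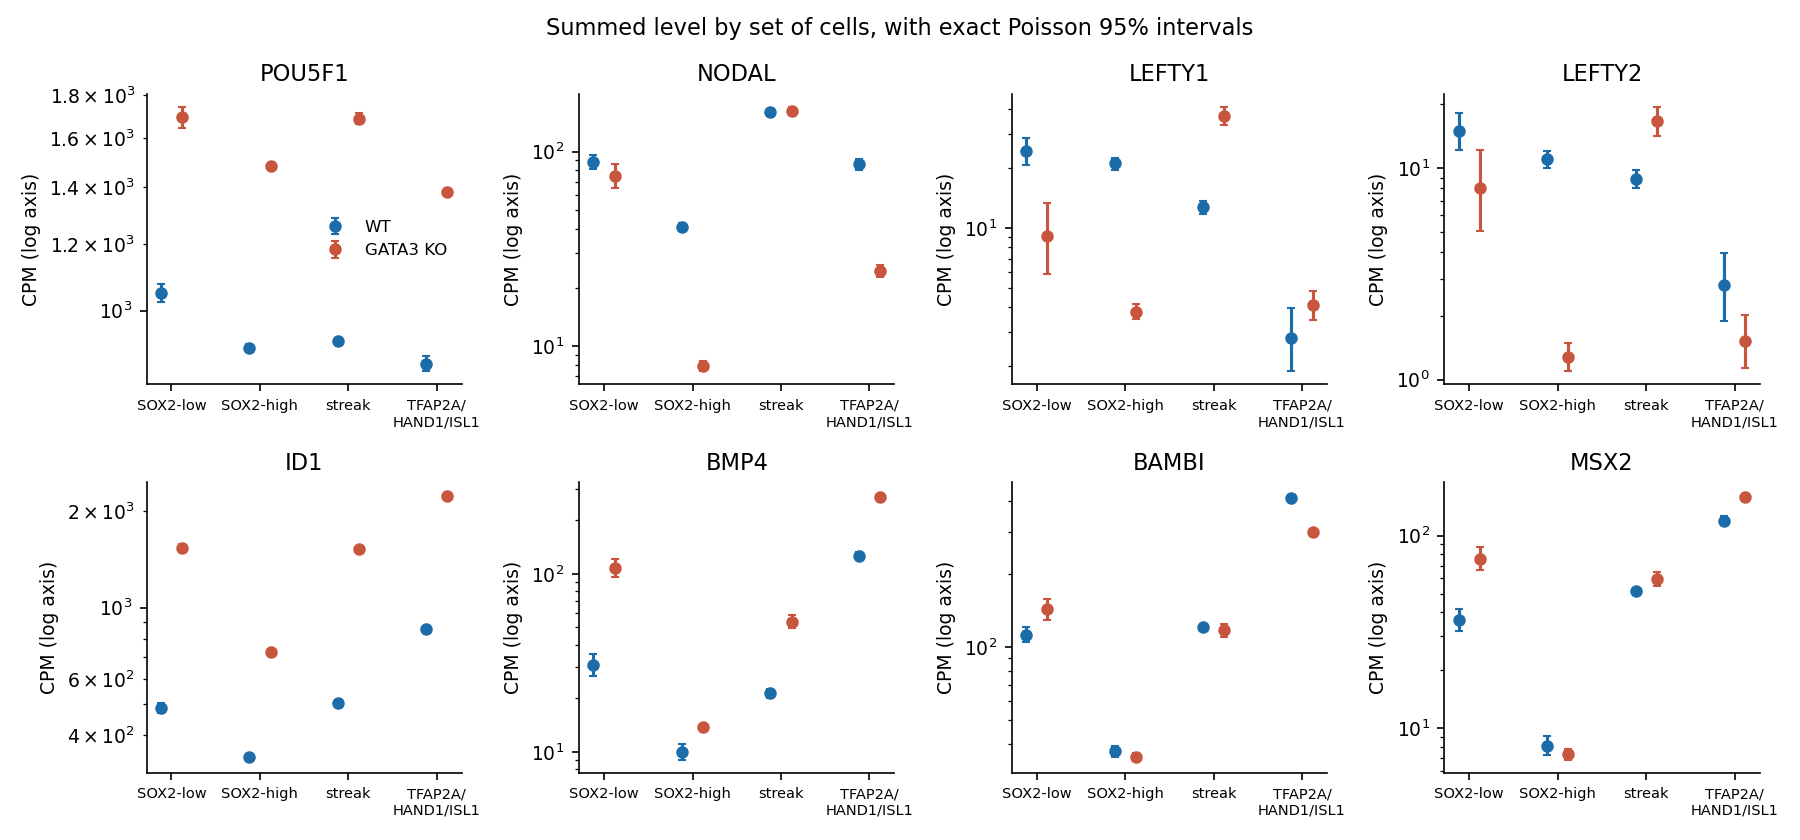
Level of 8 genes in UMIs per 1000000 (vertical axis, log scale, a separate range for each gene) in SOX2-low, SOX2-high, streak and TFAP2A, HAND1 or ISL1 cells (horizontal axis), with WT in blue and GATA3 KO in red. Bars are exact Poisson 95% intervals for counting error, and streak and TFAP2A, HAND1 or ISL1 cells can overlap. NODAL in SOX2-low cells lies between the SOX2-high and streak levels, and ID1, BAMBI and MSX2 lie between SOX2-high and TFAP2A, HAND1 or ISL1 cells.

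Few cells carried most of these transcripts. The 10 SOX2-low cells with most NODAL UMIs held 22.2% of its 586 UMIs in WT and 66.5% of its 206 UMIs in GATA3 KO, where 45 of the 85 cells had none. For LEFTY1 the 10 leading cells held 57.8% of 161 UMIs and 92.0% of 25 UMIs. For LEFTY2 they held 66.7% of 99 UMIs, and the 22 UMIs in GATA3 KO came from 8 cells. POU5F1 was spread far more evenly, with 12.4% and 24.7% of its UMIs in the 10 leading cells. The pooled LEFTY levels in GATA3 KO therefore rest on a handful of cells. NODAL was also lower in the shallow cells, at 28.1 CPM (15.0 to 48.0) in the 32 GATA3 KO cells with under 20000 UMIs and at 84.5 CPM (73.0 to 97.3) in the other 53. In WT it was 33.9 CPM (14.6 to 66.8) in 17 such cells and 90.9 CPM (83.6 to 98.6) in the other 142.

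**Figure D3:**
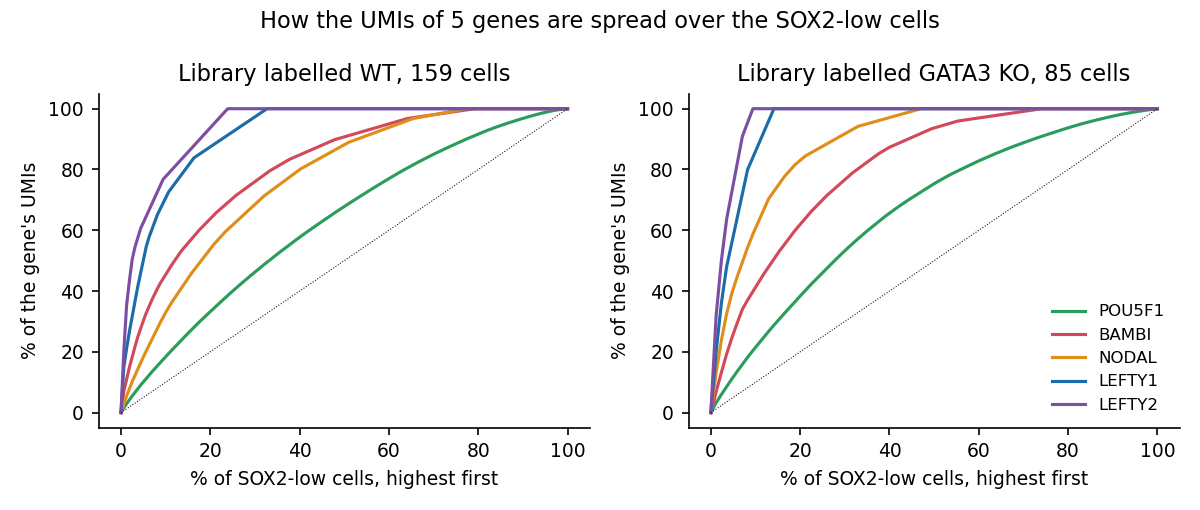
Share of a gene's UMIs (vertical axis, percent) held by the SOX2-low cells ranked from highest to lowest (horizontal axis, percent of cells), 1 panel per library, with an even spread as a dotted line. LEFTY1 reaches 100% with 52 WT cells and 12 in GATA3 KO, NODAL climbs more slowly, and POU5F1, with UMIs in all 159 and 85 cells, stays nearest to the dotted line.

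The share of SOX2-low cells with LEFTY was higher where NODAL was detected, and the difference was not tested. After thinning, LEFTY1 or LEFTY2 was found in 31.0% (20.5 to 43.1) of the 71 NODAL-positive SOX2-low WT cells and in 15.9% (8.98 to 25.3) of the 88 others. In GATA3 KO it was 14.8% (4.19 to 33.7) of 27 and 5.17% (1.08 to 14.4) of 58, and in both libraries the intervals overlapped. Among SOX2-high cells the same shares were 41.4% against 11.9% in WT and 23.5% against 2.24% in GATA3 KO, with intervals apart.

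The receptors and effectors of the NODAL path did not stand higher as a group. Their summed log2 ratios of SOX2-low over SOX2-high cells were -0.18 (-0.23 to -0.14) and -0.06 (-0.12 to 0.01). Of 10 such genes with 20 CPM or more in WT, 1 was higher in SOX2-low cells by its interval and 7 were lower. Of 11 in GATA3 KO, 3 were higher and 3 lower. Over all tested genes 17.3% and 15.7% were higher and 29.9% and 22.1% lower by interval. Past 2-fold upwards stood 0 and 2 of the list, the 2 being FURIN and PMEPA1. For all tested genes that share was 1.12% and 1.83%. FOXH1, the DNA-binding partner of SMAD2, stood at 43.7 and 49.5 CPM against 64.9 and 90.2, and TDGF1, the NODAL co-receptor, which the lists place with the ligands, at 367 and 197 CPM against 569.5 and 385. PMEPA1, a feedback inhibitor of TGF-beta signals, was at 48.4 and 48.4 CPM against 30.6 and 19.4. FURIN, which cleaves the NODAL precursor, was at 10.2 and 23.3 CPM against 5.97 and 11.0.

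The tested genes of the BMP response list all stood higher in SOX2-low than in SOX2-high cells, by their intervals and in both libraries. There were 7 of them with 20 CPM or more, of 18 in the list. Their median log2 ratio was 0.75 in WT and 1.17 in GATA3 KO. By interval 17.3% and 15.7% of all tested genes were higher. Past 2-fold upwards were 3 of 7 and 6 of 7, where 1.12% of 5177 and 1.83% of 5412 genes were past 2-fold upwards. BAMBI (chromosome 10, 28677510 to 28682932) stood at 113 CPM (105 to 121) against 37.3 in WT, and at 144 CPM (129.6 to 158) against 35.5 in GATA3 KO. MSX2, a homeobox factor (chromosome 5, 174724582 to 174730896), stood at 36.5 CPM (32.1 to 41.5) against 8.16, and at 76.1 CPM (66.1 to 87.1) against 7.36. BMP4 itself (chromosome 14, 53949736 to 53958761, minus strand) stood at 30.8 CPM (26.7 to 35.3) against 10.1, and at 108 CPM (95.8 to 121) against 13.8.

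ID1 to ID4, the inhibitors of differentiation that bind and block other helix-loop-helix factors, stood higher by smaller folds. ID1 was at 487 and 1538 CPM against 342 and 727, and ID3 at 1009 and 1171 CPM against 600.4 and 558. ID2 was at 101 and 181 CPM against 75.7 and 103, and ID4 at 74.3 and 107 CPM against 49.5 and 47.1. GATA3, under 20 CPM in both sets, stood at 11.8 and 8.01 CPM against 2.48 and 1.17. The cells with TFAP2A, HAND1 or ISL1 (0.5 or more UMIs of TFAP2A, or of HAND1 and ISL1 together, per 10000) stood above the SOX2-low cells for each of these, with BAMBI at 412.5 and 300.2 CPM, MSX2 at 119.6 and 158 CPM and GATA3 at 58.9 and 51.3 CPM. Without the cells under 20000 UMIs, BAMBI was at 114 and 154 CPM and MSX2 at 37.3 and 82.3 CPM in SOX2-low cells.

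**Figure D4:**
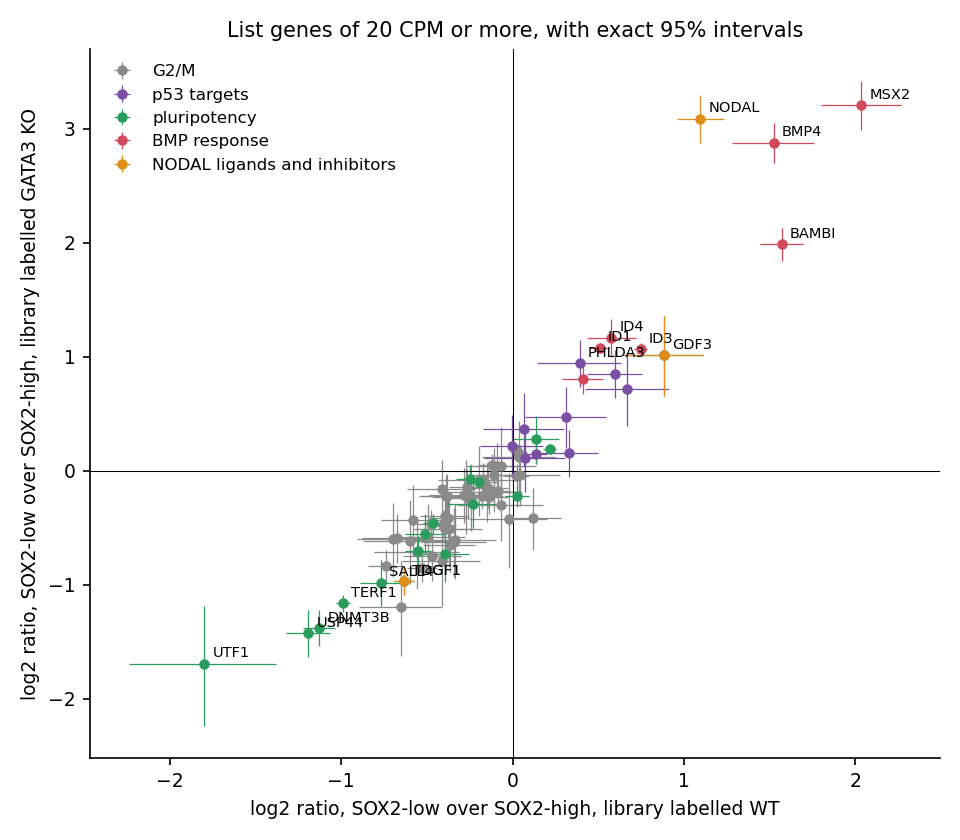
Log2 ratio of SOX2-low over SOX2-high cells in WT (horizontal axis) and in GATA3 KO (vertical axis) for genes of 5 lists with 20 CPM or more in both, with exact 95% counting intervals as bars. MSX2, BMP4, BAMBI and NODAL lie at the upper right, with MSX2 at 2.04 and 3.21, and UTF1, USP44, DNMT3B and TERF1 at the lower left.

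BAMBI or MSX2 was found after thinning in 57.2% (49.2 to 65.0) of SOX2-low WT cells and 65.9% (54.8 to 75.8) of those of GATA3 KO, against 31.1% and 26.3% of SOX2-high cells and 90.8% and 88.4% of cells with TFAP2A, HAND1 or ISL1. Streak cells stood at 70.5% and 66.5%, and all cells within the limits at 55.8% and 39.8%. The SOX2-low WT cells thus stood near their library's level and those of GATA3 KO above it. BAMBI or MSX2 went with BMP4 in single cells. Among SOX2-low cells with a BMP4 UMI, 83.9% (66.3 to 94.6) of 31 in WT and 93.3% (77.9 to 99.2) of 30 in GATA3 KO held BAMBI or MSX2, against 50.8% (41.8 to 59.7) and 50.9% (37.1 to 64.7) of cells without one. PCAT14, which is described with the amnion list, split the cells in the same way, with BAMBI or MSX2 in 72.1% (61.4 to 81.2) and 83.0% (70.2 to 91.9) of PCAT14-positive cells and in 39.7% (28.5 to 51.9) and 37.5% (21.1 to 56.3) of the others. SOX2-high cells split in the same direction. With and without BMP4 their shares were 40.9% against 29.8% in WT and 38.5% against 24.8% in GATA3 KO. With and without PCAT14 they were 47.5% against 28.3% and 46.2% against 23.0%. For NODAL the shares lay closer in WT, where BAMBI or MSX2 was found in 59.2% (46.8 to 70.7) of NODAL-positive and 55.7% (44.7 to 66.3) of NODAL-negative SOX2-low cells. In GATA3 KO these were 77.8% (57.7 to 91.4) and 60.3% (46.6 to 73.0), with overlapping intervals. The genes share cells and depth, so these shares are a description. The SOX2-low cells with no SOX2 UMI at all had more BAMBI, at 186 CPM (165 to 208) against 89.7 CPM (81.6 to 98.4) in the others in WT. In GATA3 KO it was 183 CPM (150.3 to 221) against 133 CPM (118 to 149). MSX2 was higher in them in WT, at 53.5 CPM (42.7 to 66.1) against 31.2 CPM (26.5 to 36.5). In GATA3 KO MSX2 was level, at 77.3 CPM (56.6 to 103) against 75.8 CPM (64.6 to 88.3). NODAL was at 96.8 against 86.3 CPM in WT and at 58.8 against 79.5 CPM in GATA3 KO, with overlapping intervals. SOX2 also served to choose the cells.

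Part of the amnion and trophectoderm list stood higher too. Of its 22 genes outside the rule, 5 had 20 CPM or more. All 5 stood higher in SOX2-low cells in both libraries by their intervals, where 17.3% and 15.7% of all tested genes did. Past 2-fold upwards were 4 of them (KRT8, KRT18, PCAT14 and SPP1), where 1.12% and 1.83% of all tested genes were. KRT8 and KRT18, the paired keratins of simple epithelia, stood at 287 and 977 CPM against 130.3 and 481 in WT, and at 783 and 1196 CPM against 282 and 541 in GATA3 KO. PCAT14, a long non-coding RNA, stood at 181 and 252 CPM against 21.2 and 23.3, and SPP1, which encodes osteopontin, at 65.2 and 149 CPM against 11.3 and 16.5. The genes that define these cell types were at or near the floor. VTCN1 and TP63 had 0 UMIs in both libraries (3 UMIs would be 0.455 and 1.09 CPM), GABRP was at 0.455 and 2.55 CPM and WNT6 at 2.58 and 4.37 CPM. The SOX2-low cells are therefore given no cell type name.

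Markers of other lineages were low, and the rule's limits on the 8 lineage genes set this in part for genes that go with them. In the streak and mesoderm list outside the rule only KDR, a receptor of vascular endothelial growth factor, reached 20 CPM, at 83.6 and 35.7 CPM against 52.9 and 44.2 in SOX2-high cells. Summed over that list, with KDR as most of it, the level was 93.3 CPM against 60.5 in WT and 45.5 CPM against 51.9 in GATA3 KO. The log2 ratios were 0.62 (0.49 to 0.74) and -0.19 (-0.45 to 0.06). SOX17, a factor of endoderm and germ cells, had 30 UMIs in WT, all of them in 4 cells and 19 of them in 1 cell, and 0 of 2746593 UMIs in GATA3 KO, which allows up to 1.09 CPM. In the germ cell list PDPN alone reached 20 CPM, at 62.9 and 109 CPM, and it stood at 93.6 and 114 CPM in SOX2-high cells. Of the neural ectoderm list, ZIC2, OTX2 and IRX2 stood lower than in SOX2-high cells, with OTX2 at 3.03 and 4.01 CPM against 16.2 and 35.8 and IRX2 at 10.9 and 24.8 CPM against 69.7 and 102.

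The lists of genes past 2-fold against SOX2-high cells overlapped between libraries. Of 4829 genes with 20 CPM or more in both, 46 were higher by 2-fold or more in WT and 68 in GATA3 KO, and 41 of these were shared, which is 89.1% of the first list and 60.3% of the second. Lower by 2-fold or more were 29 and 44 genes, with 18 shared (62.1% and 40.9%), and 0 genes were past 2-fold in opposite directions. HPGD, which breaks down prostaglandins, ranked first by the smaller of the ratios in the libraries, at 345 and 237 CPM against 26.0 and 11.7. WLS, which carries WNT ligands to the cell surface, was at 54.6 and 56.8 CPM against 5.78 and 2.94. The matrix protein gene POSTN was at 31.1 and 47.3 CPM against 3.25 and 2.97, ANXA1 at 22.4 and 46.6 CPM against 2.54 and 4.01, and the tight junction gene CLDN10 at 496 and 587 CPM against 77.3 and 62.7. ACTC1, cardiac actin, stood at 162 and 678 CPM against 29.6 and 115, and NTS, which encodes the peptide neurotensin, at 2754 and 1461 CPM against 590.5 and 233.

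SFRP1, a secreted WNT antagonist, ranked first among the genes that stood lower when ordered by the smaller of the ratios in the libraries, at 52.0 and 115 CPM against 309 and 658. It was uneven within the SOX2-low cells, at 161 CPM (114 to 221) in the 17 shallow WT cells against 48.0 CPM in the others, and at 225 CPM (184 to 272) in the 32 shallow GATA3 KO cells against 93.3 CPM. FZD7, a WNT receptor, was at 14.1 and 14.2 CPM against 54.2 and 40.9. IDO1, which degrades tryptophan, was at 4.70 and 5.83 CPM against 22.0 and 26.6, the metallothionein MT1X at 45.8 and 4.01 CPM against 160.4 and 28.9, and the ubiquitin protease USP9X at 92.5 and 91.0 CPM against 244 and 232. FEZ1, TTYH1 and AASS were also among the 10 lowest, with FEZ1 at 10.6 and 10.2 CPM against 31.1 and 44.04, TTYH1 at 8.04 and 5.46 CPM against 23.8 and 29.5 and AASS at 31.1 and 17.8 CPM against 82.0 and 48.3.

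Against the streak cells, SOX2-low cells had more ANXA1, POSTN, CLDN10, ACTC1, SPP1 and SFRP1 and less SP5, PCDH10, CDA, LINC00458, WNT3 and VANGL1. SP5, a direct WNT target, was at 27.1 and 2.91 CPM in SOX2-low cells, at 76.0 and 36.1 CPM in streak cells and at 6.94 and 1.83 CPM in SOX2-high cells. WNT3, the ligand of the streak, was at 16.7 and 8.74 CPM in SOX2-low cells and at 37.7 and 29.4 CPM in streak cells. CLDN10, at 496 and 587 CPM, was above the 166 and 254 CPM of streak cells.

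Most genes that set SOX2-high cells apart from cells with TFAP2A, HAND1 or ISL1 took a level between them in SOX2-low cells. In WT this held for 210 of 214 genes that were 2-fold or more higher in the cells with TFAP2A, HAND1 or ISL1 and for 122 of 133 that were lower, with a median position of 0.50 and 0.46 of the log2 distance from the SOX2-high level. In GATA3 KO it held for 190 of 211 and 70 of 85 genes, at 0.64 and 0.73. For streak cells the counts were 122 of 140 and 77 of 81 in WT, at median positions of 0.60 and 0.63. In GATA3 KO they were 63 of 96 and 33 of 48, at 0.79 and 0.86. Beyond the streak level lay 12 and 4 of these genes in WT and 30 and 15 in GATA3 KO. These genes were picked because the outer sets differ by 2-fold or more, which by itself favours a level between them in a further set. No share expected from that choice was computed, so the counts are a description. The rule itself places SOX2-low cells below the limits on the lineage genes, and a mixture of cells and a level shared by all cells give the same pooled value.

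Fewer SOX2-low cells stood in the upper part of the G2/M range. After thinning, the UMIs of the G2/M list were above the library's median in 30.2% (23.2 to 38.0) of SOX2-low WT cells and 31.8% (22.1 to 42.8) of those of GATA3 KO, against 51.0% (47.6 to 54.5) and 51.0% (49.2 to 52.8) of SOX2-high cells. Among cells with 20000 UMIs or more these shares of SOX2-low cells were 30.3% and 26.4%. Streak cells stood at 48.8% and 49.1% and cells with TFAP2A, HAND1 or ISL1 at 42.3% and 44.6%. The S phase list did not split the sets alike, with 50.9% (42.9 to 59.0) and 40.0% (29.5 to 51.2) of SOX2-low cells above the library's median against 54.6% and 51.7% of SOX2-high cells.

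**Figure D5:**
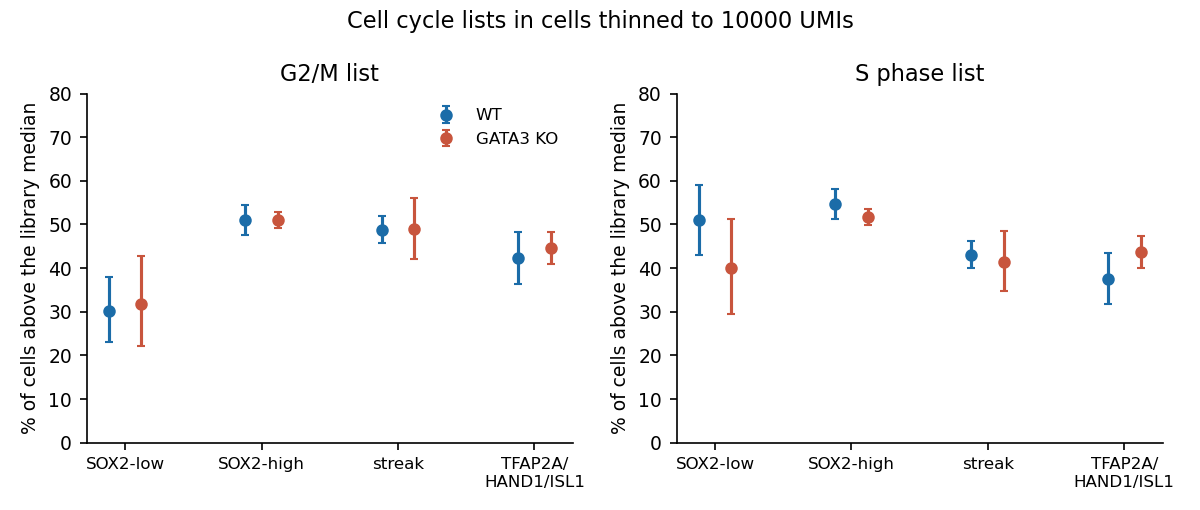
Percent of cells (vertical axis) whose UMIs of the G2/M list (left) or the S phase list (right) exceeded the median of their library after thinning to 10000 UMIs, by set of cells (horizontal axis), with exact binomial 95% intervals. For G2/M the SOX2-low cells, at 30.2% and 31.8%, lie below the SOX2-high cells, and for S phase the intervals of SOX2-low and SOX2-high cells overlap.

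Most single genes of the G2/M list stood lower. Of 48 tested in WT, 36 were lower in SOX2-low than in SOX2-high cells by their intervals and 0 higher, and of 50 in GATA3 KO, 30 were lower and 1 higher, with median log2 ratios of -0.28 and -0.26. Over all tested genes 29.9% and 22.1% were lower by interval, and the median was -0.05 and -0.05. Past 2-fold downwards stood 0 and 1 of the list, the 1 being BUB1. TOP2A, the topoisomerase of dividing cells, was at 132 and 142 CPM against 221 and 255, CENPF, a kinetochore protein, at 180.3 and 204 CPM against 260 and 367, and MKI67 at 46.9 and 64.8 CPM against 65.1 and 109.5. The S phase list had 6 genes higher and 5 lower of 35 in WT, and 6 and 6 of 35 in GATA3 KO, with medians of -0.01 and 0.01. By interval 17.3% and 15.7% of all tested genes stood higher. TYMS, thymidylate synthase, was higher at 149.8 and 187 CPM against 120.4 and 139. A level of these transcripts is no count of dividing cells. Between libraries the G2/M list summed to 4584 CPM in WT and 4712 CPM in GATA3 KO in SOX2-low cells, a log2 ratio of 0.04 (0.01 to 0.07) that was -0.02 with TMM scaling.

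Targets of p53 stood slightly higher. Of 9 tested in WT, 6 were higher in SOX2-low cells by their intervals, and of 12 in GATA3 KO, 9, with 0 lower in each and median log2 ratios of 0.31 and 0.51. Over all tested genes 17.3% and 15.7% were higher by interval, with medians of -0.05 and -0.05. Past 2-fold upwards stood 0 and 1 of the list, the 1 being CDKN1A. CDKN1A, the cyclin kinase inhibitor p21, was at 14.9 CPM (12.1 to 18.1) against 7.13 and at 24.8 CPM (19.2 to 31.4) against 6.30. MDM2, which degrades p53, was at 58.1 and 68.1 CPM against 38.1 and 37.3, and GDF15 at 10.5 and 12.7 CPM against 1.56 and 2.78. CDKN1A was found in 30.2% and 38.8% of SOX2-low cells without thinning. Of the stress and immediate early list, 2 genes were higher and 3 lower of 7 tested in WT, and 4 and 2 of 7 in GATA3 KO. Besides the shares higher given above, 29.9% and 22.1% of all tested genes were lower by interval. IER3, an immediate early gene, was at 72.8 and 165 CPM against 19.8 and 32.9, and HSPH1, a heat shock protein, at 117 and 115 CPM against 137 and 132.

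Other signalling lists split. Of the FGF and ERK list, 5 genes were higher and 4 lower by their intervals of 11 tested in WT, and 4 and 4 of 8 in GATA3 KO. Over all tested genes, here and for the further lists below, 17.3% and 15.7% were higher and 29.9% and 22.1% lower by interval. DUSP6, a feedback phosphatase of ERK, was at 25.2 and 37.5 CPM against 9.51 and 24.1, and FGFR1, the main FGF receptor of hESCs, at 65.8 and 123 CPM against 135 and 199. Of the epithelial and mesenchymal list FN1, fibronectin, was past 2-fold upwards in both libraries, at 148 and 146 CPM against 40.9 and 30.9. CDH1, E-cadherin, was at 88.0 and 63.0 CPM against 85.6 and 79.4, and VIM, vimentin, at 152 and 261 CPM against 287 and 306. Of the glycolysis and hypoxia list, 2 were higher and 2 lower of 9 in WT and 5 and 2 of 11 in GATA3 KO, with LDHA, lactate dehydrogenase, at 733 and 632 CPM against 689 and 543.

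Set side by side, the SOX2-low cells of the libraries differed in 285 of 5403 genes by 2-fold or more. Higher in those of GATA3 KO were 174 (3.22%) and lower 111 (2.05%), with a median log2 ratio of 0.05 over all. With TMM scaling the split was 134 higher and 136 lower. Of the BMP response list all 7 tested genes were higher in GATA3 KO by their intervals, where 32.3% of all tested genes were higher and 24.4% lower by interval, and 3 of the 7 were past 2-fold, ID1 at a log2 ratio of 1.66 (1.59 to 1.72), MSX2 at 1.04 (0.77 to 1.31) and BMP4 at 1.77 (1.52 to 2.03). Of 7 other tested genes around ID1 on chromosome 20, 3 were higher in GATA3 KO by their intervals and 3 lower. The higher ones were HM13 at 113 against 46.4 CPM, BCL2L1 at 26.9 against 10.9 CPM and TPX2 at 118 against 65.2 CPM. HM13 and BCL2L1 were past 2-fold. These higher genes lie between 31514428 and 31801805, on both sides of ID1 at 31605283. The lower ones were COMMD7, DNMT3B and MAPRE1, which lie further off, between 32702699 and 32850405. The part of the neighbours in the ID1 difference was not tested. POU5F1 was higher by 0.69 (0.64 to 0.75), and SOX2-high cells showed the same order, at 1485 and 902.5 CPM.

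The genes with the highest ratios in GATA3 KO over WT were higher in SOX2-high cells of that library too, with log2 ratios there from 0.42 (BMP4) to 1.93 (ACTC1). With the GATA3 KO level before the WT level, CRIP2 was at 25.1 against 4.40 CPM, FAM20A at 53.2 against 10.5, CALCB at 20.4 against 3.64, CDC42EP1 at 32.4 against 6.67, CSRP1 at 26.6 against 6.07 and FZD2 at 42.2 against 12.3. ACTC1 was at 678 against 162 CPM in SOX2-low cells and at 115 against 29.6 in SOX2-high cells, and ADM, which encodes adrenomedullin, at 93.9 against 22.7 CPM and at 81.3 against 24.3. The gene ranked first, TMSB4Y, has a near-identical copy elsewhere, so its count is uncertain and is not given. Lowest were AC131094.1 at 0.364 against 52.9 CPM (1 UMI in GATA3 KO, a log2 ratio of -5.31, -5.74 to -4.14), LINC00458 at 10.6 against 191, LINC01356 at 37.9 against 427 and AL009031.1 at 1.09 against 21.1 (3 UMIs in GATA3 KO, a log2 ratio of -3.40, -4.19 to -2.36). SERPINE2, a protease inhibitor, was at 61.2 against 453 CPM, PCDH10 at 6.92 against 58.7, SP5 at 2.91 against 27.1, CYP1B1 at 3.28 against 29.1 and TNNI3 at 3.64 against 28.2. For each of the 9 lowest genes named here and for MT1X the SOX2-high cells differed in the same direction, with log2 ratios from -2.57 to -1.36. The pooled NODAL level of SOX2-low cells had a log2 ratio of -0.24 (-0.47 to -0.01) between libraries. Its spread over cells differed, with UMIs in 77.4% of these cells in WT and 47.1% in GATA3 KO without thinning. In GATA3 KO 10 of the 85 cells held 66.5% of the NODAL UMIs. In SOX2-high cells NODAL was at 41.0 CPM in WT and 7.94 CPM in GATA3 KO.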

How the data were processed

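Single-cell 3′ RNA libraries of BMP4-treated hESCs, 1 per group, had been processed by the authors with Cell Ranger 3.0.2 on GRCh38, per the submitters' processing notes, and were deposited as UMI counts per gene and cell, not normalized. Total counts were 200569649 for the library labelled WT (3802 cells) and 284280464 for the library labelled GATA3 KO (6221 cells). Of these, 2173 and 4038 cells were within the limits on genes, mitochondrial share and UMIs.

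From the counts, UMIs were summed over the cells of a set and given per 1000000 UMIs (CPM). Intervals are exact Poisson or Clopper-Pearson at 95%, and for ratios exact binomial. Log2 ratios used a pseudocount of 1 CPM, and genes were counted as tested with 20 CPM or more in the higher set and as called past 2-fold. Cell cycle sums and shares given as after thinning used cells thinned to 10000 UMIs (seed 42). So did the shares of cells with a gene among those with or without another. Except where it was applied after thinning, the rule and the shares of cells that met it used all UMIs. A list gene is called higher or lower by its interval where the interval of the log2 ratio leaves out 0. Named genes were GATA3, list members and the 10 highest and 10 lowest ratios of each main contrast (6 for streak cells) among tested genes. Between libraries the direction had to hold in means of per-cell CPM. Against SOX2-high and streak cells it had to hold in both libraries, and genes were ranked by the smaller of both ratios. The cells and the 18 gene lists were chosen with earlier results of these data known. The gene lists held 356 symbols, of which 355 were in the files, and positions are from GENCODE 44 (385 of 385 identifiers matched). Cells are not replicates, so no test across groups was run. Computation used Python 3.11.15, numpy 2.4.6, pandas 2.3.3, scipy 1.17.1 and matplotlib 3.10.9, with edgeR 4.0.16 in R 4.3.3 only for TMM factors. The scripts were tested on simulated data.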

Additional observations from a re-analysis of the deposited data

Results flagged for a closer look

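In 4 genes of the lists the SOX2-low cells stood apart from the SOX2-high cells in opposite directions in the libraries, with counting intervals that left out 0 in each. They were picked from all list genes outside the rule with 20 CPM or more in the higher set of both libraries. The number to be found by counting error alone was not computed. The difference between libraries was not tested, and each library is 1 sample. SKIL, a repressor of SMAD signalling, had a log2 ratio of -0.18 (-0.28 to -0.08) labelled WT and 0.26 (0.09 to 0.42) labelled GATA3 KO. KDR, a receptor of vascular endothelial growth factor, had 0.65 (0.51 to 0.78) and -0.30 (-0.60 to -0.02). CENPU, a centromere protein, had -0.19 (-0.30 to -0.08) and 0.15 (0.002 to 0.29). DDIT4, a stress-induced inhibitor of mTOR, had -0.43 (-0.64 to -0.22) and 0.49 (0.15 to 0.82). The intervals of KDR and CENPU labelled GATA3 KO came close to 0.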

How the results depend on the processing

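Of 96 alternative values for 10 results, 71 kept their direction and moved little, 24 moved and 1 reversed, and the cause was not tested. Applying the rule after thinning gave a share of 3.59% labelled GATA3 KO, a log2 ratio of GATA3 KO over WT of -1.24 for LEFTY1, LEFTY2 and NODAL and 0.14 for G2/M, and SOX2-low over SOX2-high ratios of 0.63 and 1.79 for LEFTY1, LEFTY2 and NODAL and 0.10 and 0.064 for POU5F1. A SOX2 limit of 0.5 gave shares of 4.60% and 0.991% and a G2/M ratio of 0.12. Allowing no lineage UMI gave shares of 3.13% and 1.26%, LEFTY1, LEFTY2 and NODAL ratios of 1.17 and 3.35 and a POU5F1 ratio of 0.28 labelled WT. With no limit on genes the share labelled WT was 5.81% and its POU5F1 ratio 0.16. With at least 20000 UMIs the share labelled GATA3 KO was 1.45%. Means of per-cell CPM gave -0.73 for LEFTY1, LEFTY2 and NODAL between libraries, 2.42 over SOX2-high cells labelled GATA3 KO and 0.090 for G2/M. TMM scaling gave 0.63 for POU5F1 between libraries, 0.28 for POU5F1 over SOX2-high cells labelled WT, and -0.025 for G2/M between libraries, which reversed it. A minimum of 5 CPM in place of 20 counted 701 genes past 2-fold between libraries (400 higher, 301 lower) in place of 285. No paired analysis was possible because each group had 1 library, and leaving out a replicate was not possible for the same reason. Depth limits the LEFTY1 and LEFTY2 values labelled GATA3 KO, which rest on 25 and 22 UMIs.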
